A study of Homo sapiens with 26 samples.

Results

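The 10 genes described here handle iron: the ferroxidases HEPH and CP, the iron exporter SLC40A1, the carrier TF with its receptors TFRC and TFR2, the surface reductase CYBRD1, the ferritin chains FTH1 and FTL, and the heme-degrading enzyme HMOX1. They were found by matching Ensembl identifiers to gene symbols, and all 10 were present in each of the 3 count tables, out of 62778 identifiers in any table. The set was chosen with results of these data known and HEPH (hephaestin) leads it. Which comparison HEPH was selected on is not recorded, so its values are given as a description without a p-value, and counts of genes past a threshold are over the other 9.

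Poly(A) RNA was sequenced from 26 libraries of 3 human pancreatic ductal adenocarcinoma cell lines in which the transcription factor HNF4A was raised or repressed. HNF4A is made from 2 promoters, P1 and P2, whose isoforms differ at their amino termini. In Panc10.05 and BxPC3, doxycycline switched on a P1 isoform (labelled P1-a2) or a P2 isoform (labelled P2-a8), and the control cells (NC) received doxycycline too. The Panc10.05 doses were 25 ng/mL for P1-a2 and for the GFP control and 12.5 ng/mL for P2-a8, so isoform and dose cannot be told apart in that line, while every BxPC3 library received 500 ng/mL and the control carried an empty vector. Each of these 6 groups held 2 libraries. In ASPC1 (AsPC-1), CRISPR interference guides repressed P1 (guides sgP1E and sgP1J), P2 (sgP2D and sgP2G) or both promoters (sgDual2 and sgDual3), with 2 libraries per guide and 4 per target, against 2 libraries of the control guide sgNC. Libraries of a group carry replicate numbers, and nothing in the labels says that they came from separate cultures, so the p-values measure the spread between these libraries, which may be technical. Comparisons of ASPC1 targets pool the 2 guides of a target with no term for guide. Their spread therefore also includes differences between guides, and their p-values count the 2 libraries of a guide as independent.

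Cells take up iron bound to transferrin through the receptor TFRC, reduce it, and use it, store it in ferritin shells built of FTH1 and FTL, or export it through ferroportin, the product of SLC40A1. Export needs a copper ferroxidase on the cell surface or in plasma, which is the role of hephaestin and ceruloplasmin. HMOX1 frees iron from heme. Much of this control acts on mRNA: iron regulatory proteins bind a short hairpin, the iron-responsive element, and binding in a 5′ untranslated region holds back translation while binding in a 3′ untranslated region protects the transcript from decay. The measurements below are mRNA levels, which do not show the translational part of that control.

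Matches to this hairpin are shown because 5 of the 10 genes held at least 1, in a 5′ or a 3′ untranslated region. They are matches of sequence, and binding was not tested. A search of GENCODE v29 transcripts (GRCh38) used an unpaired C, 5 bases, the loop CAGTGN (N being A, C or T) and 5 bases that pair with the first 5, G-T pairs allowed. FTH1, FTL and SLC40A1 each held 1 match in the 5′ region, at chr11:61967574-61967602 (minus strand), chr19:48965335-48965363 (plus) and chr2:189580661-189580689 (minus). TFRC held 4 in its 3′ region on the minus strand, lettered A to D from the coding side, of which A lies at chr3:196050979-196051007. TF held 1, which is not listed below. It starts at base 14062 of the 3′ region of 1 transcript. The search found none in HEPH, CP, TFR2, CYBRD1 or HMOX1. Such a match was found in the 5′ region of 26 of 19043 genes (0.137%) and in the 3′ region of 104 of 19573 genes (0.531%). Capitals mark the unpaired C and the loop:
FTH1 5′: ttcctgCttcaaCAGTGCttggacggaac
FTL 5′: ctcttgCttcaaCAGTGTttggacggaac
SLC40A1 5′: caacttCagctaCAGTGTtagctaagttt
TFRC 3′ element A: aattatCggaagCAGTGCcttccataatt
TFRC 3′ element B: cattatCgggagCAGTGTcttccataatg
TFRC 3′ element C: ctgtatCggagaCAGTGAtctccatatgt
TFRC 3′ element D: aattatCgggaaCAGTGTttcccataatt

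RefSeq promoter windows (GRCh38.p14) were at hand for HEPH, SLC40A1, TF, TFRC, CYBRD1 and FTL. None of them held the HNF4-type motif CAAAGTCCA or CAAAGGTCA on either strand in the 250 bases before a start, against 0.325% and 0.339% of 35116 windows. That says only that these letters were not in these windows.

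Library totals lay between 34618745 and 46827673 counts for Panc10.05, between 26369154 and 37483772 for BxPC3, and between 26079388 and 50662077 for ASPC1. HNF4A itself followed the labels: it read 0.24 and 0.0579 CPM (counts scaled to library size, per 1000000) in the Panc10.05 controls against 10.7 and 12.97 with P1-a2 and 37.6 in both libraries with P2-a8, and 1.08 and 0.464 CPM in the BxPC3 controls against 9.75 and 11.6 with P1-a2 and 12.6 and 14.2 with P2-a8. In ASPC1 it averaged 213 CPM with sgNC, 129 with sgP1, 86.4 with sgP2 and 7.99 with sgDual. By edgeR only the sgDual fall passed (adjusted p = 6.25e-06, against 0.615 for sgP1 and 0.0751 for sgP2). The sgP2 fall (log2 -1.30) passed with DESeq2 (0.0367) and with 2 groups only (2.23e-04), and no sgP1 or sgP2 library overlapped the control. The count covers the whole gene, so it does not show which promoter was used or separate the construct from the native gene. All 5 epithelial markers (EPCAM, CDH1, KRT8, KRT18, KRT19) exceeded 1 CPM in each line. Of 15 markers of fibroblasts, leukocytes, endothelium and erythroid cells, none exceeded 20.7 CPM, which CD79A reached in BxPC3. Some marker sums moved with induction. Single genes made up most of the highest sums: CD79A reached 20.7 CPM among leukocyte markers in BxPC3, and HBB 2.72 CPM among erythroid markers in Panc10.05. Leukocyte markers summed to 16.2 to 23.9 CPM with P1-a2 and 4.11 to 5.02 with P2-a8 in BxPC3, against 1.41 to 1.75 in its controls, and to 10.6 to 11.4 and 7.07 to 7.9 in Panc10.05, against 6.6 to 6.67. Erythroid markers in Panc10.05 summed to 2.06 to 2.72 CPM in the controls, 0.0435 to 0.077 with P1-a2 and 0.197 to 0.214 with P2-a8. Epithelial markers in Panc10.05 summed to 4670 to 4690 CPM in the controls, 6650 to 7690 with P1-a2 and 8140 to 8490 with P2-a8. In BxPC3 these sums were 5700 to 6120, 8630 to 9080 and 7210 to 7260. The part of these shifts in the results was not tested.

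The lines differed in how strongly they expressed the members, and ferritin led in each. Levels of different genes are compared as CPM per kilobase of merged exon, and across lines they come from tables scaled separately. In the Panc10.05 controls FTL stood at 4558 ± 9.62 (SD, n = 2), FTH1 at 915 ± 4.51, TFRC at 69.2 ± 9.4 and HMOX1 at 7.5 ± 0.291 CPM per kilobase, and no other member reached 1. The BxPC3 controls had FTL at 1409 ± 27.8, FTH1 at 929 ± 11.2, TFRC at 61.7 ± 3.21 and CYBRD1 at 4.48 ± 0.187. Next came SLC40A1 at 1.07 ± 0.0878, CP at 0.965 ± 0.249 and HMOX1 at 0.801 ± 0.0253, of which CP did not differ from either neighbour beyond its spread. In the ASPC1 control guide FTH1 at 1846 ± 106 and FTL at 1632 ± 88 lay closest together, followed by TFRC at 89.7 ± 5.28, CYBRD1 at 23.2 ± 2.78, SLC40A1 at 11.3 ± 2.75, HMOX1 at 4.35 ± 0.109, TFR2 at 1.49 ± 0.0497 and HEPH at 0.489 ± 0.157.

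Not every member could be tested. TF never exceeded 4 counts in any of the 26 libraries and failed the filter on low counts in all 3 tables. TFR2 had at most 1 count in Panc10.05 and 2 in BxPC3 and was tested in ASPC1 only. CP had at most 12 counts in ASPC1 and was tested in the other lines only. Each comparison therefore tested 7 of the 9 members other than HEPH, which is described without a test.

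Induction of either isoform raised several members. Repression of a single promoter moved none past the threshold by edgeR, where only 0.265% (sgP1) and 3.42% (sgP2) of all genes passed. HNF4A itself did not pass there either. A gene passed when edgeR's quasi-likelihood test gave a Benjamini-Hochberg adjusted p under 0.05 over all genes tested. In Panc10.05, 6 of 7 rose with P1-a2, where 62% of all 17247 tested genes passed, 31.5% up and 30.5% down. With P2-a8, 5 of 7 rose, where 46.2% passed, 23.7% up and 22.5% down. In BxPC3, 4 rose and 2 fell with P1-a2, where 32.1% of 17635 genes passed (17.1% up, 14.9% down), and 3 rose with P2-a8, where 6.99% passed (4.3% up, 2.69% down). By DESeq2, 4 and 4 of the 7 passed in Panc10.05 and 6 and 4 in BxPC3, P1-a2 first. The median log2 fold change over the 7 tested members was 0.77 and 0.43 in Panc10.05 and 0.38 and 0.10 in BxPC3, P1-a2 first, against 0.02, 0.00, -0.01 and 0.01 over all genes. In bulk RNA, a change in the number of expressing cells and a change in RNA per cell cannot be told apart. The 2 comparisons within a line share their control libraries. Without Panc10.05 NC replicate 1, the count for P2-a8 dropped from 5 to 3.

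In ASPC1, repression of both promoters changed 5 of 7 tested members, 2 up and 3 down, where 35.6% of 16992 genes passed (17.8% up, 17.8% down). Repression of P1 alone moved 0 of 7 by edgeR (2 at an unadjusted p under 0.05, and 0 by DESeq2), where 0.265% of genes passed (0.1% up, 0.165% down). Repression of P2 alone also moved 0 of 7 by edgeR (2 at an unadjusted p under 0.05, and 1, CYBRD1, by DESeq2), where 3.42% passed (1.66% up, 1.76% down). The median over the tested members was -0.05, 0.08 and -0.24 for sgP1, sgP2 and sgDual, against 0.01, 0.00 and 0.00 over all genes. The count for sgDual was 3 when either guide was left out, 2 without sgNC replicate 1, and 3 without sgNC replicate 2 or sgDual3 replicate 2. Without guide sgP1J, 2 members passed for sgP1. Fitted with sgP2 and sgNC alone, 2 passed for sgP2.

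**Figure D1:**
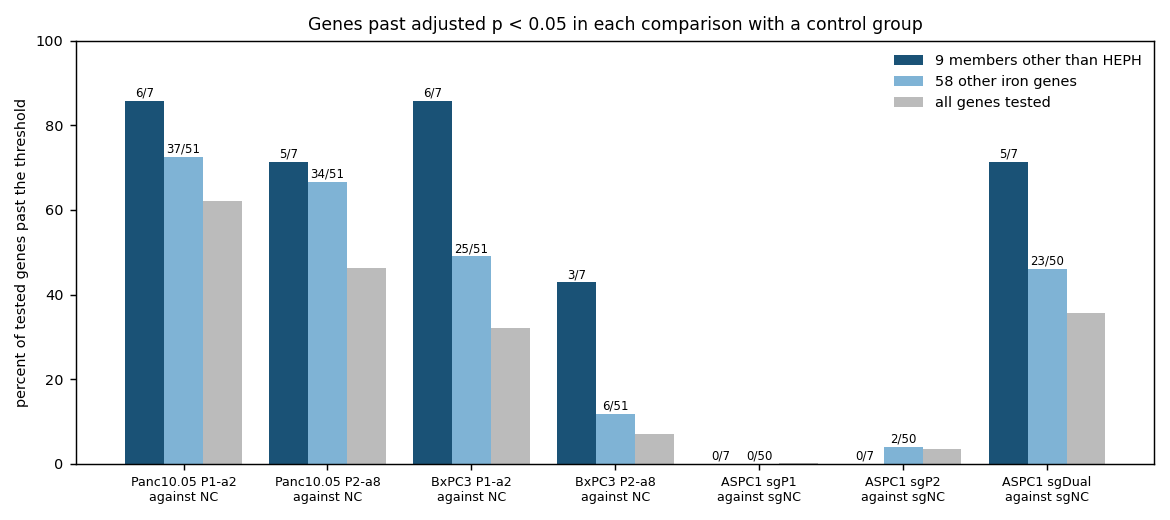
Percent of tested genes past the threshold (vertical axis) in the 7 comparisons with a control group, for the 9 members other than HEPH, for 58 other iron genes and for all genes tested; numbers over bars are genes past the threshold over genes tested. The bars for P1-a2 in Panc10.05 stand on a background of 62%, and those for sgP1 on one of 0.265%; no test compares the bars.

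HEPH, the membrane ferroxidase that partners ferroportin, was nearly absent from the doxycycline-treated control cells of Panc10.05 and BxPC3 and present in ASPC1. The Panc10.05 controls held 1 count and 0 counts, or 0.024 and 0 CPM. P1-a2 libraries read 0.257 and 0.435 CPM and P2-a8 libraries 1.025 and 1.014 CPM, so each induced library lay above both controls. The summed ratio to the control was 26.9 for P1-a2 (30 counts against 1, exact 95% interval 4.47 to 1100) and 77.7 for P2-a8 (84 against 1, 13.6 to 3110). These intervals cover counting error only. They take no account of HEPH being chosen with results known, and they are not a test.

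In BxPC3 the order of the isoforms turned around. HEPH read 0.149 and 0.191 CPM in the controls, 10.0 and 13.45 CPM with P1-a2, and 0.514 and 0.887 CPM with P2-a8. The 3 groups did not overlap. The fold changes were 66.6 with P1-a2 (log2 6.06 ± 0.323 SE) and 3.96 with P2-a8 (log2 1.99 ± 0.483), and P1-a2 stood 16.8-fold above P2-a8 at the same dose. In Panc10.05, P1-a2 stood 2.89-fold below P2-a8, at a higher dose and with HNF4A mRNA at 11.8 against 37.6 CPM. The corresponding HNF4A means in BxPC3 were 10.7 and 13.4 CPM.

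In ASPC1, HEPH differed between guides of the same target as well as between targets. The control guide gave 2.69 and 4.27 CPM, sgP1E 2.46 and 2.65, and sgP1J 1.46 and 1.45. The highest readings came from sgP2D, 6.96 and 5.30, followed by sgP2G at 3.89 and 2.83. The dual guides read 2.93 and 3.90 (sgDual2) and 1.79 and 2.94 (sgDual3). All 4 sgP1 libraries lay below both controls (log2 -0.78 ± 0.371), whereas sgP2 (log2 0.44 ± 0.372) and sgDual (log2 -0.27 ± 0.369) overlapped them. Set against each other, sgP2 stood 2.34-fold above sgP1 (log2 1.23 ± 0.308) with no overlap, and the guides of a target differed by log2 0.80 (sgP1E over sgP1J), 0.86 (sgP2D over sgP2G) and 0.52 (sgDual2 over sgDual3). The sgP2 value turned to -0.05 without guide sgP2D, and the sgDual value to 0.11 without sgNC replicate 2.

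SLC40A1, which encodes ferroportin, the iron exporter, rose with both isoforms in both lines. In BxPC3 the controls read 4.91 and 4.37 CPM, P1-a2 64.0 and 77.9, and P2-a8 50.8 and 46.7, with no overlap. That is 15.4-fold for P1-a2 (log2 3.94 ± 0.119, adjusted p = 3.29e-09) and 10.6-fold for P2-a8 (log2 3.40 ± 0.12, adjusted p = 4.32e-08). Panc10.05 started lower, at 0.624 and 0.840 CPM, and reached 1.64 and 2.24 with P1-a2 and 2.52 and 2.25 with P2-a8. These were 2.69-fold (adjusted p = 9.66e-06) and 3.3-fold (adjusted p = 4.28e-07).

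Repressing both HNF4A promoters lowered SLC40A1 in ASPC1. The control guide read 40.7 and 57.5 CPM, and the dual guides 22.8 and 30.6 (sgDual2) and 16.4 and 21.0 (sgDual3), all below both controls. The fall was 2.16-fold (log2 -1.11 ± 0.373, adjusted p = 0.0363). Within each guide SLC40A1 was higher in the library numbered 2. This fit did not use the replicate number, so that difference is part of its spread. The adjusted p was 0.239 without sgNC replicate 2, 0.0817 without sgNC replicate 1, 0.0646 without sgDual2 replicate 1, 0.0772 and 0.0741 without sgDual3 replicate 1 or 2, 0.181 without guide sgDual3 and 0.0959 with no filter. The single-promoter targets overlapped the control, at 41.3 ± 18.7 CPM for sgP1 and 45.2 ± 11.3 for sgP2 (SD over 4 libraries, 2 per guide). The sgP1 libraries split by guide, at 46.8 and 65.1 CPM with sgP1E and 23.2 and 30.2 with sgP1J. Log2 fold changes were -0.25 for sgP1 (adjusted p = 0.92) and -0.12 for sgP2 (adjusted p = 0.908). Both took the other sign in some alternatives: without sgNC replicate 2 they were 0.02 and 0.14.

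CP, the ferroxidase secreted mainly by liver, moved in opposite directions with P1-a2 in the 2 induced lines. In BxPC3 it fell from 5.76 and 8.33 CPM to 1.94 and 1.51 with P1-a2, a 4.12-fold fall (log2 -2.04 ± 0.375, adjusted p = 0.00446) that was not past the threshold without P1-a2 replicate 2 (adjusted p = 0.0727). With P2-a8 it read 4.92 and 2.23 CPM, below both controls (log2 -0.98 ± 0.343, adjusted p = 0.157), and passed without P2-a8 replicate 1 (adjusted p = 0.00185), with DESeq2 (0.032) and with no filter (1.12e-05). In Panc10.05 the gene was near the limit of detection, at 0.12 and 0.029 CPM in the controls, 0.334 and 0.326 with P1-a2 and 0.0214 and 0.113 with P2-a8. P1-a2 was 4.08-fold higher (adjusted p = 0.0121, from 28 against 6 counts). The log2 fold change of 2.03 became 1.43 without NC replicate 2 and 3.36 without NC replicate 1. The call was lost without P1-a2 replicate 1 (adjusted p = 0.0602), P1-a2 replicate 2 (0.0608) or NC replicate 2 (0.159), and with DESeq2 (0.0975). In ASPC1, CP was counted 25 times in the 4 sgDual libraries, 3 times in sgP1, 3 times in sgP2 and 1 time in sgNC. A CP pseudogene reached 0.107 CPM in Panc10.05, near the level of the gene itself. The ratio of sgDual to sgNC in ASPC1 was 11.2 with an exact 95% interval of 1.84 to 461. Exons of HPS3 overlap CP on the other strand, and whether the counting used strand is not given in the sources used here.

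TFRC, the receptor that takes up transferrin-bound iron, changed little against its high level. In Panc10.05 it read 598 and 493 CPM in the controls, 729 and 724 with P1-a2, and 769 and 705 with P2-a8. Both groups lay above the controls, by 1.33-fold (log2 0.41 ± 0.0692, adjusted p = 5.74e-06) and 1.35-fold (log2 0.43 ± 0.0692, adjusted p = 5.15e-06). BxPC3 controls read 504 and 468, P1-a2 634 and 628 (1.3-fold, adjusted p = 3.97e-04), and P2-a8 536 and 509 (1.07-fold, adjusted p = 0.331).

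Loss of both promoters brought TFRC down in ASPC1. It read 737 and 678 CPM with sgNC, between 549 and 752 in the 4 sgP1 libraries, between 694 and 779 with sgP2, and 473, 459, 477 and 466 with sgDual. The 4 sgDual values lay close together and below every other ASPC1 library. The fall was 1.51-fold (log2 -0.59 ± 0.0992, adjusted p = 3.58e-04).

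TFR2, a receptor that senses iron-loaded transferrin in liver and erythroid cells, was measurable in ASPC1 only. Its libraries read 7.38 and 7.73 CPM with sgNC and 6.05, 4.33, 6.08 and 5.20 with sgDual, with no overlap (log2 -0.48 ± 0.157, adjusted p = 0.0264). The call did not hold without sgNC replicate 1 (adjusted p = 0.108), sgNC replicate 2 (0.133), sgDual2 replicate 2 (0.0663) or sgDual3 replicate 2 (0.0576), or without guide sgDual2 (0.0933) or sgDual3 (0.0549). TF, the plasma carrier itself, was at 0 to 4 counts per library, too few for any comparison, and its exons overlap those of SRPRB and TFP1 on the same strand.

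CYBRD1, the duodenal-type reductase that turns ferric into ferrous iron at the cell surface, went down with P1-a2 in BxPC3 and up on HNF4A loss in ASPC1. BxPC3 controls read 22.5 and 23.9 CPM, P1-a2 13.2 and 13.97, and P2-a8 22.4 and 22.7. The P1-a2 fall was 1.71-fold (log2 -0.77 ± 0.0901, adjusted p = 7.33e-05), while P2-a8 gave log2 -0.04 ± 0.0875 (adjusted p = 0.852). In ASPC1 the control guide read 110 and 130 CPM and the dual guides 185, 204, 179 and 197, a 1.59-fold rise (log2 0.67 ± 0.185, adjusted p = 0.0122) with no overlap. Without sgNC replicate 1 that adjusted p was 0.147, without guide sgDual2 0.052 and with no filter 0.0505.

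The sgP2 libraries read 181, 172, 176 and 170 CPM of CYBRD1, also above both controls (log2 0.54 ± 0.184, adjusted p = 0.131). That rise passed with DESeq2 (adjusted p = 0.0429) and with 2 groups only (0.00694). The sgP1 group split by guide, with 187 and 202 for sgP1E against 112 and 131 for sgP1J (log2 0.40 ± 0.183 against sgNC, adjusted p = 0.558). Without guide sgP1J the sgP1 rise passed (log2 0.694, adjusted p = 3.77e-04). Panc10.05 carried little CYBRD1, 0.096 and 0.232 CPM in the controls, 0.282 and 0.261 with P1-a2 and 0.577 and 0.563 with P2-a8. Only the P2-a8 rise passed, 3.55-fold from 12 to 47 counts (adjusted p = 0.00338), and not without NC replicate 1 (adjusted p = 0.0993). The P1-a2 value was log2 0.76 ± 0.587 (adjusted p = 0.262).

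**Figure D2:**
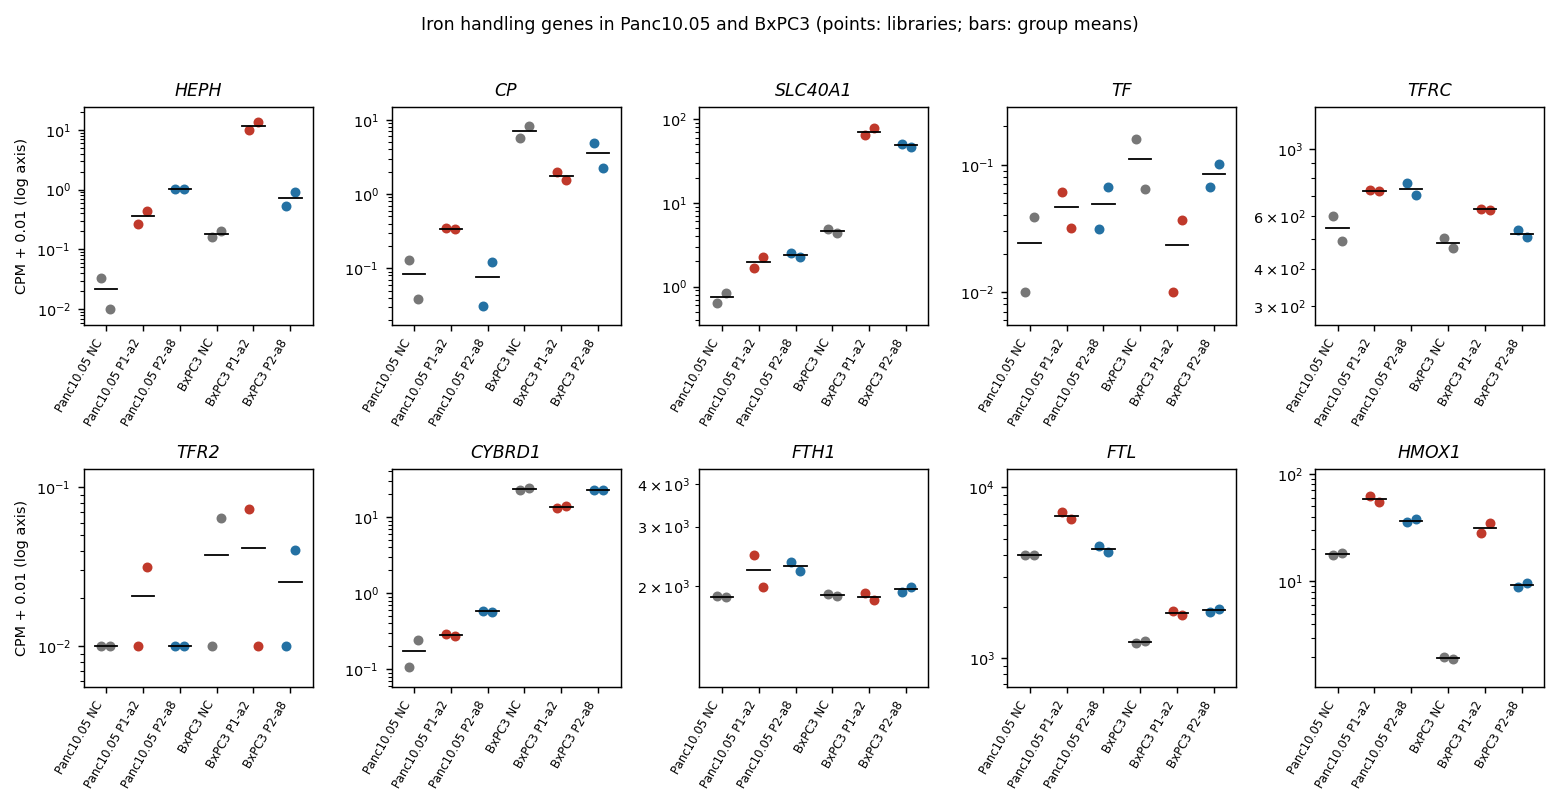
CPM plus 0.01 on a log axis for the 10 members in the Panc10.05 and BxPC3 libraries; points are libraries and bars group means. SLC40A1 and HMOX1 stand above the controls in all 4 induced groups, and HEPH is highest with P2-a8 in Panc10.05 (1.025 and 1.014 CPM) and with P1-a2 in BxPC3 (10.0 and 13.45 CPM).

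Ferritin is a shell of heavy (FTH1) and light (FTL) chains. The heavy chain has the ferroxidase site and the light chain aids mineral formation in the core. FTL mRNA rose with P1-a2 in Panc10.05, from 3996 and 4008 CPM to 7128 and 6548 (1.71-fold, log2 0.77 ± 0.0619, adjusted p = 1.88e-14). P2-a8 read 4520 and 4152 there (log2 0.12 ± 0.0616, adjusted p = 0.124). In BxPC3 both isoforms raised it, from 1219 and 1254 CPM to 1891 and 1781 with P1-a2 (1.48-fold, adjusted p = 1.05e-05) and to 1860 and 1945 with P2-a8 (1.54-fold, adjusted p = 2.58e-05).

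FTH1 moved less in the induced lines. Panc10.05 read 1864 and 1851 CPM in the controls, 2466 and 1987 with P1-a2 and 2361 and 2217 with P2-a8, rises of 1.2-fold (adjusted p = 0.00239) and 1.23-fold (adjusted p = 9.68e-04). The P1-a2 call was lost without P1-a2 replicate 1 (log2 0.10, adjusted p = 0.258), NC replicate 1 (0.146) or NC replicate 2 (0.191), and with DESeq2 (0.0902). The P2-a8 call was lost without NC replicate 1 (0.108) or 2 (0.18), and with DESeq2 (0.0652). BxPC3 libraries all lay between 1815 and 1994 CPM (log2 -0.02, adjusted p = 0.799, with P1-a2, and 0.06, adjusted p = 0.585, with P2-a8).

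In ASPC1 the heavy chain moved and the light chain did not pass. FTH1 rose from 3595 and 3899 CPM with sgNC to 6499, 6189, 7661 and 7083 with sgDual, 1.83-fold (log2 0.87 ± 0.103, adjusted p = 2.19e-05), while the 8 libraries of the single-promoter guides read 3265 to 4131. FTL read 1379 and 1488 CPM with sgNC and 1331, 1232, 1134 and 1151 with sgDual (log2 -0.24 ± 0.179, adjusted p = 0.32). With sgP2 it read 2165, 1966, 1990 and 1806, above both controls (log2 0.47 ± 0.184, adjusted p = 0.195). Fitted with the 2 groups alone, both FTL differences passed (adjusted p = 0.0156 and 0.0125). FTH1 exons overlap BEST1 on the other strand, and the 25 FTH1 and 16 FTL pseudogene rows held at most 1.04% and 0.445% of the reads of the gene and its pseudogenes.

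The ratio of the chains, each per kilobase, shows their unequal change. FTH1 over FTL was 1.13 in both sgNC libraries, 2.11 to 2.92 in the 4 sgDual libraries, 0.965 to 1.46 in sgP1 and 0.825 to 0.924 in sgP2. All 4 sgDual ratios exceeded the highest of the other 10 ASPC1 libraries. In BxPC3 the ratio was 0.66 ± 0.0208 (SD, n = 2) in the controls, 0.438 ± 0.00361 with P1-a2 and 0.446 ± 0.00325 with P2-a8. Panc10.05, where FTL dominated, gave 0.201 ± 0.00134, 0.14 ± 0.013 and 0.228 ± 0.00354 for NC, P1-a2 and P2-a8.

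**Figure D3:**
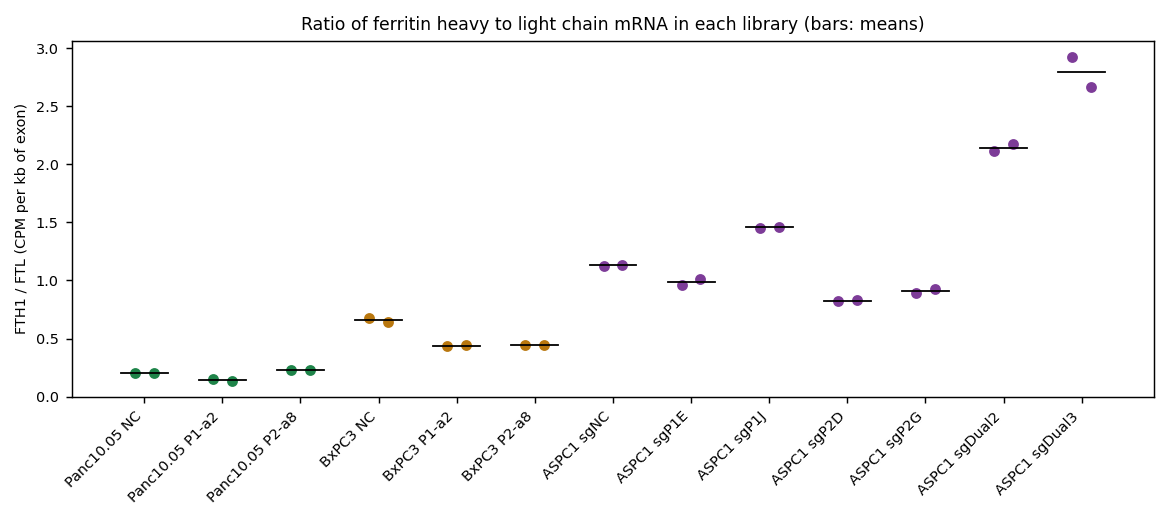
Ratio of FTH1 to FTL mRNA, each as CPM per kilobase of merged exon, in every library (points) with means (bars), by line and group or guide. The 4 sgDual libraries lie between 2.11 and 2.92, above every other library, and those of Panc10.05 lie lowest.

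HMOX1, the inducible heme oxygenase, rose with both isoforms in both lines. BxPC3 controls read 1.97 and 1.88 CPM, P1-a2 28.3 and 34.5, and P2-a8 8.86 and 9.58. These were 16.3-fold (log2 4.03 ± 0.146, adjusted p = 1.26e-08) and 4.79-fold (log2 2.26 ± 0.154, adjusted p = 6.16e-06). Panc10.05 controls read 17.6 and 18.5, P1-a2 61.5 and 54.2, and P2-a8 35.4 and 37.6, or 3.21-fold (adjusted p = 6.06e-22) and 2.02-fold (adjusted p = 5.47e-14). No induced library overlapped its controls.

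In ASPC1, HMOX1 did not pass against the control guide for any target in the main fit. It read 10.6 and 10.3 CPM with sgNC and 11.3, 9.99, 12.4 and 9.91 with sgDual. The sgP1 libraries all lay below the controls, at 6.04 and 6.44 for sgP1E and 10.09 and 8.52 for sgP1J (log2 -0.43 ± 0.195, adjusted p = 0.548). Without guide sgP1J the sgP1 fall passed (log2 -0.746, adjusted p = 0.0197). The sgP2 libraries read 16.4 and 13.2 (sgP2D) and 13.3 and 10.3 (sgP2G), or log2 0.35 ± 0.198 (adjusted p = 0.396).

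**Figure D4:**
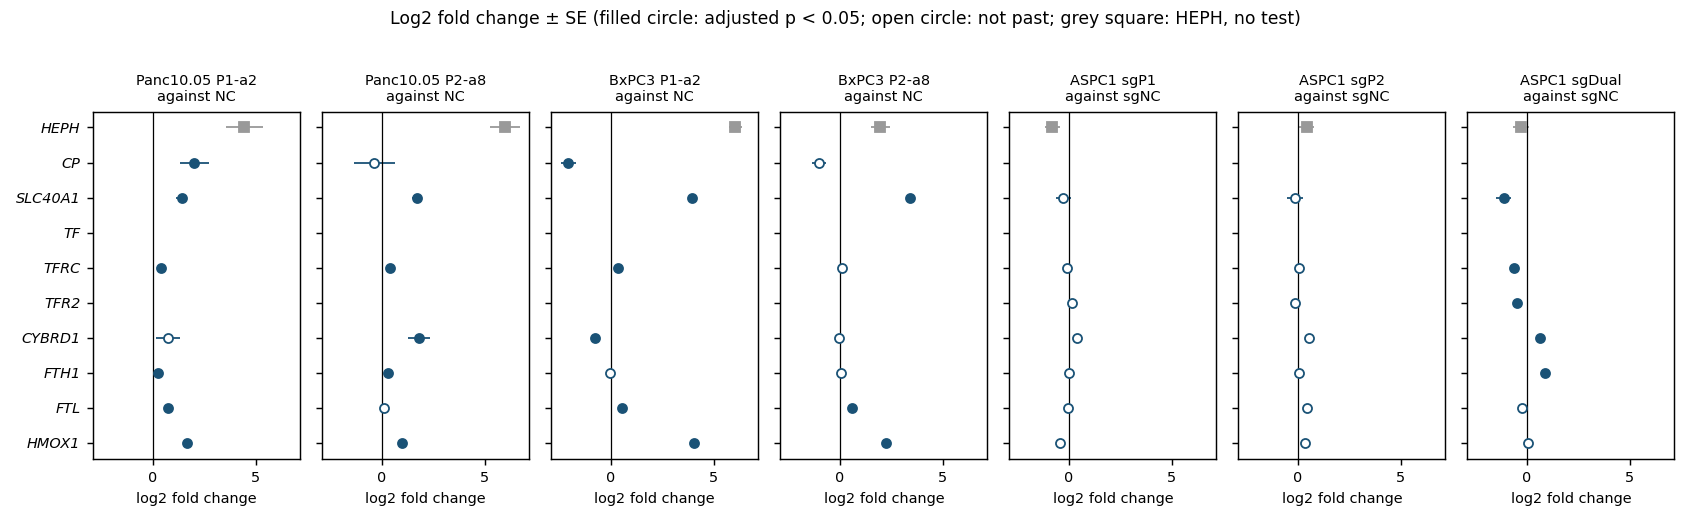
Log2 fold change with its standard error for each tested member (rows) in the 7 comparisons with a control group (panels). Filled circles passed the threshold, open circles did not, and grey squares show HEPH, which was not tested; SLC40A1 lies right of 0 in the 4 induced panels and at -1.11 for sgDual.

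Set directly against each other, the isoforms differed in 3 of 7 members in Panc10.05, all higher with P1-a2, where 46.9% of genes passed (22.2% up, 24.7% down). These were CP (5.17-fold, adjusted p = 0.00701), FTL (1.58-fold, adjusted p = 7.17e-12) and HMOX1 (1.58-fold, adjusted p = 7.21e-10). The CP difference was lost without P2-a8 replicate 1 (adjusted p = 0.217) and with DESeq2 (0.0839). CYBRD1 (log2 -1.07 ± 0.457, adjusted p = 0.0519) and SLC40A1 (log2 -0.29 ± 0.215, adjusted p = 0.273) were lower with P1-a2 but not past the threshold, although CYBRD1 passed when only these groups were fitted (adjusted p = 0.0376).

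In BxPC3 the dose was equal. HNF4A mRNA was lower with P1-a2 (9.75 and 11.6 CPM) than with P2-a8 (12.6 and 14.2), but not past the threshold (log2 -0.33 ± 0.175, adjusted p = 0.217). There, 4 of 7 members differed, 3 of them higher with P1-a2, where 22.5% passed (11.6% up, 10.8% down). HMOX1 stood 3.41-fold higher (adjusted p = 7.49e-06), SLC40A1 1.46-fold (adjusted p = 0.00218) and TFRC 1.21-fold (adjusted p = 0.00518). CYBRD1 stood 1.66-fold lower (adjusted p = 2.86e-04). CP was 1.73 ± 0.304 CPM with P1-a2 and 3.57 ± 1.9 with P2-a8 (log2 -1.06, adjusted p = 0.0964), and the difference passed without P2-a8 replicate 2 (0.00135), with DESeq2 (0.0125) and with no filter (2.17e-05).

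Among the ASPC1 targets, sgP2 and sgP1 differed in 1 of 7 members, where 4.3% of genes passed (2.17% up, 2.13% down). HMOX1 stood 1.72-fold higher with sgP2 (log2 0.78 ± 0.161, adjusted p = 0.0144). It did not pass without sgP2D replicate 1 (adjusted p = 0.0536), without guide sgP2D (0.142) or with only these 2 groups fitted (0.0814), where the count was 0. FTL gave log2 0.52 ± 0.148 (adjusted p = 0.0666) and passed without sgP1E replicate 1 (0.0214) or 2 (0.0348), and the count was then 2.

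Against sgP1, sgDual changed 5 of 7 members, 2 up and 3 down, where 38.3% passed (18.6% up, 19.7% down). FTH1 stood 1.83-fold higher (adjusted p = 2.1e-06), TFRC 1.44-fold lower (adjusted p = 1.96e-04) and TFR2 1.54-fold lower (adjusted p = 0.00151). SLC40A1 (log2 -0.87, adjusted p = 0.0491) and HMOX1 (log2 0.49, adjusted p = 0.0253) passed narrowly, with overlapping groups. SLC40A1 was lost in 11 of 18 alternatives, among them without sgP1E replicate 1 (adjusted p = 0.107) or 2 (0.146), sgDual2 replicate 1 (0.0921), sgDual3 replicate 1 (0.117) or 2 (0.105), and without guide sgP1E, where it was log2 -0.22. HMOX1 was lost in 7, among them without sgP1E replicate 1 (0.075) or 2 (0.0663), sgDual2 replicate 1 (0.0556) and sgDual3 replicate 1 (0.0737). The count was 3 without sgP1E replicate 1, sgDual2 replicate 1 or sgDual3 replicate 1, and without either dual guide.

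Against sgP2, sgDual changed 5 of 7, 1 up and 4 down, where 46.4% passed (22.8% up, 23.5% down). FTH1 stood 1.73-fold higher (adjusted p = 2.46e-06). TFRC stood 1.56-fold lower (adjusted p = 2.01e-05), FTL 1.64-fold (adjusted p = 0.00136), SLC40A1 1.99-fold (adjusted p = 0.023) and TFR2 1.26-fold (adjusted p = 0.0467). SLC40A1 did not pass without sgP2D replicate 2 (adjusted p = 0.068) or sgDual3 replicate 1 (0.0611) or 2 (0.0557), without guide sgP2D (0.134) or sgDual3 (0.171), or with no filter (0.0683). TFR2, whose groups overlapped, did not pass in 9 of 18 alternatives: without guide sgP2G (log2 -0.16, adjusted p = 0.443), sgDual2 (0.18) or sgDual3 (0.0884), with no filter (0.086), with 2 groups only (0.0585), and without sgP2G replicate 1 (0.105) or 2 (0.174), sgDual2 replicate 2 (0.148) or sgDual3 replicate 2 (0.103). The count was 3 without sgDual3 replicate 2 or guide sgDual3.

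**Figure D5:**
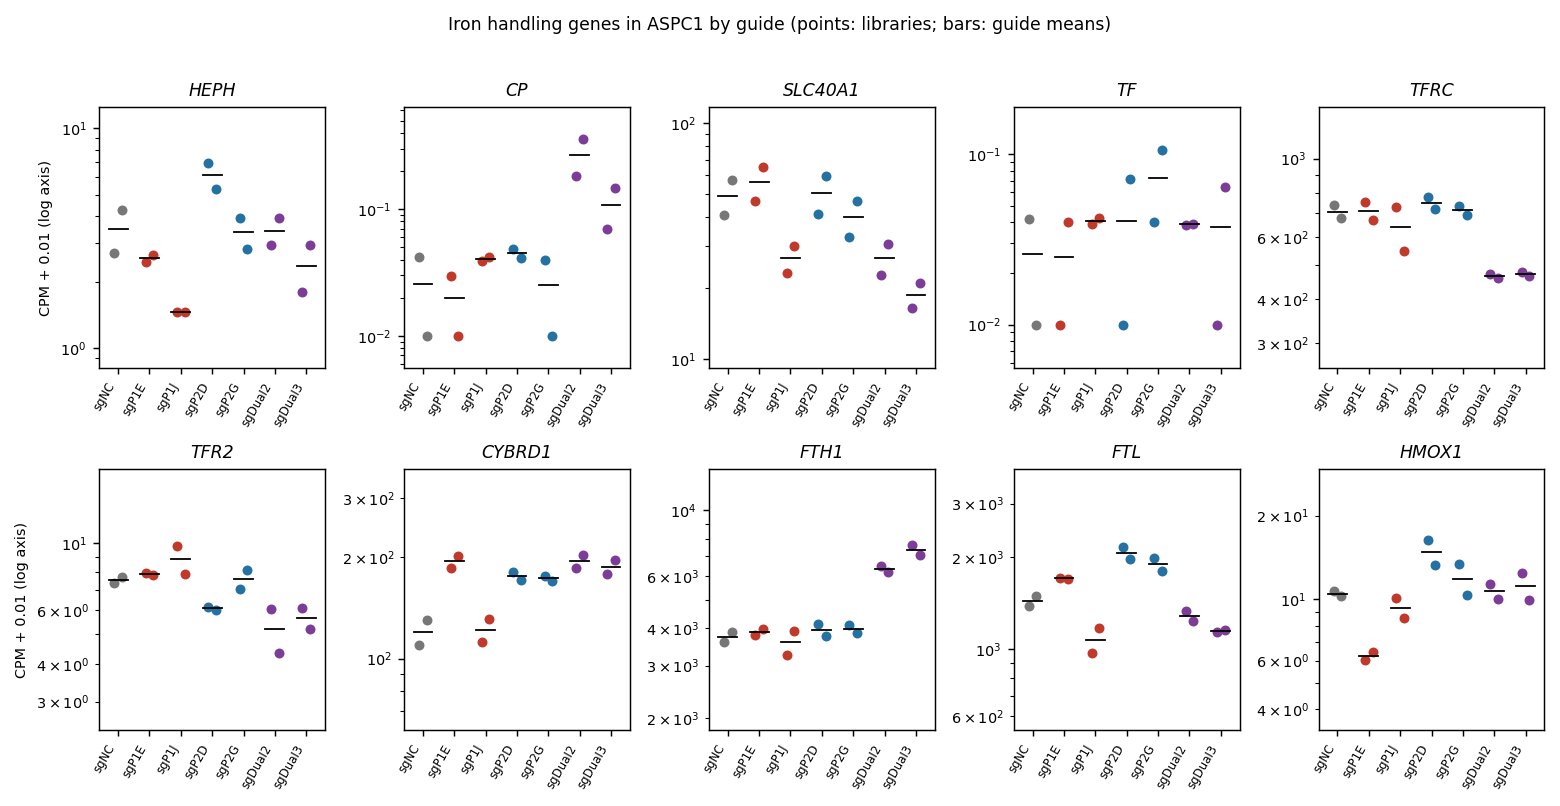
CPM plus 0.01 on a log axis for the 10 members in the 14 ASPC1 libraries by guide; points are libraries and bars guide means. FTH1 is highest (6189 to 7661 CPM) and TFRC lowest (459 to 477 CPM) with the dual guides, and sgP1E and sgP1J stand apart for SLC40A1, CYBRD1, FTL and HMOX1.

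The guides to P1 did not give the same levels. Of 7 members, 4 differed between sgP1E and sgP1J, where 14.5% of genes passed. SLC40A1 read 46.8 and 65.1 CPM with sgP1E against 23.2 and 30.2 with sgP1J (2.1-fold, adjusted p = 0.0339). CYBRD1 was 1.6-fold higher (adjusted p = 5.63e-04) and FTL 1.59-fold higher with sgP1E, at 1709 and 1697 CPM against 970 and 1167 (adjusted p = 3.91e-04). HMOX1 was 1.5-fold lower (adjusted p = 0.0279). The SLC40A1 call was lost without sgP1E replicate 2 (adjusted p = 0.197) or sgP1J replicate 1 (0.157) or 2 (0.0738), and the HMOX1 call without sgP1E replicate 1 (0.134) or 2 (0.0727) or sgP1J replicate 1 (0.156). Without sgP1E replicate 2 the count was 2. HNF4A averaged 145 CPM with sgP1E and 114 with sgP1J (adjusted p = 0.627).

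Between the other guides of a target the count was 0 of 7 by edgeR: 0 at an unadjusted p under 0.05 and 0 by DESeq2 for sgP2D against sgP2G, where 1.69% of genes passed, and 1 and 0 for sgDual2 against sgDual3, where 0.883% passed. SLC40A1 read 22.8 and 30.6 CPM with sgDual2 against 16.4 and 21.0 with sgDual3 (log2 0.51 ± 0.292, adjusted p = 0.756). It passed when no filter was set (8.6e-04) and with the replicate number as a block in the fit (1.63e-04). With that block the count was 1 for each of these guide pairs.

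The effect of each isoform was then compared between the lines, in a joint fit of the 12 Panc10.05 and BxPC3 libraries. Line, dose, control construct and sequencing project change together here and cannot be told apart. For P1-a2, 6 of 7 members differed, where 36.4% of 19372 genes passed. SLC40A1 and HMOX1 rose more in BxPC3, with log2 differences, Panc10.05 minus BxPC3, of -2.50 ± 0.301 and -2.34 ± 0.172 (adjusted p = 5.49e-07 and 2.6e-10). CP gave a difference of 4.08 ± 0.885 (adjusted p = 0.00166) and CYBRD1 of 1.55 ± 0.455 (adjusted p = 0.00941) towards Panc10.05, both from few Panc10.05 reads (28 against 6 counts of CP and 23 against 12 of CYBRD1). FTH1 (0.29, adjusted p = 0.0314) and FTL (0.21, adjusted p = 0.0409) passed narrowly. Each was lost without Panc10.05 P1-a2 replicate 1 (adjusted p = 0.258 and 0.188), NC replicate 1 (0.062 and 0.0615) or NC replicate 2 (0.0913 and 0.0869), or BxPC3 P1-a2 replicate 2 (0.104 and 0.16), NC replicate 1 (0.077 and 0.0536) or NC replicate 2 (0.069 and 0.153). CYBRD1 was lost without Panc10.05 NC replicate 1 (0.172), where the count was 3.

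For P2-a8, 5 of 7 differed, where 23.5% passed. SLC40A1 (-1.68 ± 0.289 log2 units, adjusted p = 1.49e-04), HMOX1 (-1.24 ± 0.183, adjusted p = 2.21e-05) and FTL (-0.50 ± 0.0808, adjusted p = 6.09e-05) rose more in BxPC3. CYBRD1 gave a difference of 1.87 ± 0.394 towards Panc10.05 (adjusted p = 0.00102), from few Panc10.05 reads (47 against 12 counts). In BxPC3 it did not rise (log2 -0.04, adjusted p = 0.852). TFRC rose more in Panc10.05 (0.33 ± 0.102, adjusted p = 0.0222). The TFRC difference was lost without Panc10.05 P2-a8 replicate 1 (0.118) or NC replicate 2 (0.14), or BxPC3 NC replicate 1 (0.0873) or P2-a8 replicate 2 (0.0684). FTH1 gave 0.25 ± 0.103 (adjusted p = 0.0939) and passed without Panc10.05 P2-a8 replicate 2 (0.0477).

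The other 58 iron genes of a list covering uptake, copper loading, hepcidin, ferritin turnover, the regulatory proteins, heme and mitochondrial iron were read beside the members. In Panc10.05, 37 of 51 tested passed with P1-a2 (19 up, 18 down; median log2 -0.03) and 34 of 51 with P2-a8 (18 up, 16 down; median -0.02), shares of 72.5% and 66.7% beside 62% and 46.2% of all genes. ATP7B, a copper exporter that loads ceruloplasmin, rose from 0.469 to 6.64 CPM with P1-a2 (log2 3.80 ± 0.22, adjusted p = 5.45e-19) and to 3.29 with P2-a8 (2.79 ± 0.242). The heme exporter FLVCR1 rose from 13.5 to 38.9 CPM with P1-a2, the heme-binding plasma protein HPX from 0.525 to 2.05, FLVCR2 from 3.41 to 11.3 with P2-a8, and the reductase STEAP4 from 0.847 to 2.25 with P2-a8. LCN2, which binds iron-carrying siderophores, fell from 9.99 to 1.95 CPM with P1-a2, as did BMP6, an inducer of hepcidin, from 2.86 to 1.00. FDXR, a mitochondrial reductase, fell from 5.79 to 2.50 with P1-a2 and to 3.60 with P2-a8. Of 13 mitochondrial genes, 9 fell and 0 rose with P2-a8 (22.5% and 23.7% of all genes), while 5 fell and 3 rose with P1-a2 (30.5% and 31.5%). In BxPC3 none of them passed with P2-a8, where 6.99% of all genes passed. BMP6 and ERFE, both of the hepcidin list, fell with P2-a8 in Panc10.05 (log2 -0.55 and -0.64, adjusted p = 0.0458 and 0.0279). Both calls were lost with DESeq2 (adjusted p = 0.166 and 0.128). BMP6 was lost without any 1 of the 4 P2-a8 and NC libraries (adjusted p = 0.0512 to 0.214), and ERFE without P2-a8 replicate 1 (0.195) or NC replicate 1 (0.0717) or 2 (0.0952).

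In BxPC3, 25 of 51 passed with P1-a2 (11 up, 14 down; median log2 -0.03) and 6 of 51 with P2-a8 (1 up, 5 down; median -0.01), shares of 49% and 11.8% beside 32.1% and 6.99% of all genes. LCN2 fell with both, from 64.8 to 19.6 and 16.6 CPM (adjusted p = 4.42e-06 and 8.56e-06), and STEAP4 from 7.64 to 2.86 and 3.37. Of 9 tested uptake and reduction genes, 4 fell and 0 rose with each isoform, where 14.9% of all genes fell with P1-a2 and 2.69% with P2-a8. In Panc10.05 the same list had 10 tested genes. With P1-a2, 4 rose and 3 fell, beside 31.5% and 30.5% of all genes. With P2-a8, 5 rose and 2 fell, beside 23.7% and 22.5%. Counts of the other lists, apart from the mitochondrial one, are not given. HFE, which interacts with the transferrin receptor, fell from 11.9 to 6.66 CPM with P1-a2. FLVCR2 rose from 1.33 to 3.78 CPM, the constitutive heme oxygenase HMOX2 from 65.7 to 127 and ATP7B from 1.33 to 2.51 with P1-a2. With P2-a8, the copper exporter ATP7A rose from 17.6 to 25.3 CPM (adjusted p = 0.0106) and STEAP1 fell from 13.6 to 9.34 (adjusted p = 0.0143). Leaving out single libraries ended some of these calls: ATP7B without P1-a2 replicate 2 (adjusted p = 0.0849) or NC replicate 2 (0.161), ATP7A without P2-a8 replicate 1 (0.0735) or NC replicate 1 (0.0687) or 2 (0.0876), and STEAP1 without P2-a8 replicate 2 (0.103) or NC replicate 1 (0.0538) or 2 (0.109).

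In ASPC1, 23 of 50 passed with sgDual (13 up, 10 down; median log2 -0.04), 2 of 50 with sgP2, both down, and 0 of 50 with sgP1 by edgeR (3 at an unadjusted p under 0.05 and 0 by DESeq2). The shares were 46%, 4% and 0%, beside 35.6%, 3.42% and 0.265% of all genes. LCN2 rose 7.5-fold with sgDual, from 44.8 to 336 CPM (log2 2.91 ± 0.428, adjusted p = 3.57e-04). MELTF, a transferrin-like surface protein, rose from 8.30 to 30.6 CPM (adjusted p = 1.63e-06) and ATP7A from 19.4 to 60.03 (adjusted p = 1.79e-04). FLVCR1 and the zinc and iron importer SLC39A14 each fell by 0.60 log2 units (adjusted p = 0.00318 and 3.81e-04). With sgP2, the ferrous iron transporter SLC11A2 fell from 61.2 to 38.8 CPM (adjusted p = 8.57e-04) and the iron chaperone PCBP2 from 369 to 290 (adjusted p = 0.0184), the latter lost without sgNC replicate 1 (0.184) or 2 (0.142) or without either sgP2 guide (0.0671 and 0.0886).

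Over the 14 ASPC1 libraries, the genes whose log2 CPM most resembled that of HEPH among 10452 compared were FCHO2 (Pearson r = 0.93), FAM110C (0.93) and PANK3 (0.91), and those most opposed were TRIR (-0.90), NMB (-0.89) and NMRAL1 (-0.88). Over the 6 BxPC3 libraries the first 3 gave r of 0.94, 0.61 and 0.97, and the last 3 gave 0.91, 0.99 and 0.57, so the opposed genes did not keep their sign. In Panc10.05 the values were 0.93, 0.89 and 0.98 for the first 3 and -0.53, 0.51 and -0.49 for the last. The points share guides and library depth, and the values are descriptions.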

How the data were processed

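Gene counts of 26 poly(A) RNA libraries were deposited by the authors as whole-number counts, 1 table per cell line; per the submitters' processing notes the tools were STAR 2.7.9a, cutadapt 1.16, featureCounts 1.6.3 and DESeq2 1.36.0 with build GRCh38. Annotation, strand setting and handling of multimapped reads are not given in the sources used here. From the counts, edgeR 4.0.16 (R 4.3.3) ran its default low-count filter, TMM scaling and the quasi-likelihood test within each line, all groups sharing 1 spread, with Benjamini-Hochberg adjustment over all genes tested and a threshold of 0.05. CPM values are TMM-scaled, and ± after a log2 value is its standard error. No pair of replicates matched within sampling noise (chi-square per degree of freedom 5.08 to 24.07). The fit was checked on simulated counts. Members and gene lists were chosen with earlier results of these data known. All 10 members are named; other iron genes are named by the up to 3 largest changes per direction that passed, had a mean of at least 1 CPM and did not overlap between groups. One gene that this rule names is not reported here. Genes resembling HEPH are the 3 highest and 3 lowest Pearson correlations of log2 CPM among genes with a mean of at least 5 CPM. Alternatives were DESeq2 1.42.0, its size factors, no filter, a fit of 2 groups only, a replicate block, and leaving out each guide or library. Where a control group is left with 1 library, that library is assumed to vary like the other groups.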

Additional observations from a re-analysis of the deposited data

Results flagged for a closer look

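TFR2 in sgP1J replicate 1 read 9.744 CPM, far from the other 3 sgP1 libraries for a group of 4. Such a gap turns up by chance in about 1 in 20 groups. Every tested member was screened in sgP1, sgP2 and sgDual, so a gap of this size somewhere is not unusual. The sgP1 libraries also come from different guides, sgP1E and sgP1J.

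The guides to P1 gave different levels of 4 members, as sgP1E minus sgP1J on the log2 scale: 1.068 for SLC40A1, 0.6782 for CYBRD1, 0.6722 for FTL and -0.5807 for HMOX1.

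The response to P1-a2 differed between Panc10.05 and BxPC3, Panc10.05 minus BxPC3 on the log2 scale, by 4.075 for CP, -2.499 for SLC40A1, 1.548 for CYBRD1, 0.2924 for FTH1, 0.2143 for FTL and -2.338 for HMOX1. For P2-a8 the differences were -1.675 for SLC40A1, 0.3299 for TFRC, 1.874 for CYBRD1, -0.5045 for FTL and -1.242 for HMOX1. Line, dose, control construct and sequencing project cannot be told apart in them.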

How the results depend on the processing

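Over 123 results for single genes, 1322 values kept direction and side of the threshold, 112 lost the call, 24 gained it and 7 took the other sign. Those 7 were FTH1 in BxPC3 with P1-a2 (0.0128 without P1-a2 replicate 2), SLC40A1 with sgP1 (0.186 without guide sgP1J, 0.0201 without sgNC replicate 2) and sgP2 (0.039 without guide sgP2G, 0.144 without sgNC replicate 2), and HEPH with sgP2 (-0.0507 without guide sgP2D) and sgDual (0.107 without sgNC replicate 2); the cause was not tested. The lowest values when 1 library was left out were -0.0439 for FTH1, -0.551 and -0.359 for SLC40A1 with sgP1 and sgP2, and -0.561 for HEPH with sgDual. Counts of members past the threshold moved as follows. For sgP1 the count was 2 without guide sgP1J. For sgP2 it was 1 with DESeq2 and 2 with 2 groups only. For sgDual it was 3 without guide sgDual2 and 3 without sgDual3. For sgP2 against sgP1 it was 2 with DESeq2, 0 with 2 groups only, 3 without guide sgP1E and 0 without sgP2D. For sgDual against sgP1 it was 3 without guide sgDual2 and 3 without sgDual3, and against sgP2 it was 3 without sgDual3. For sgDual2 against sgDual3 it was 1 with no filter. Leaving out 1 library gave counts of 4 to 5 (P1-a2), 3 to 5 (P2-a8) and 2 to 4 (P1-a2 against P2-a8) in Panc10.05, and 5 to 6, 3 to 4 and 4 to 5 in BxPC3. It gave 0 to 0 for sgP1 and sgP2, 2 to 4 for sgDual, 0 to 2 for sgP2 against sgP1, 3 to 6 and 3 to 5 for sgDual against sgP1 and sgP2, 2 to 3 for the P1 guides, 0 to 0 for the other guides, and 3 to 6 and 4 to 6 for the line differences in P1-a2 and P2-a8.

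Same-numbered libraries correlated in their deviations from group means at -0.01 to 0.01 in Panc10.05, 0.07 to 0.13 in BxPC3 and 0.08 to 0.34 in ASPC1 (over 0.1 in 15 of 21 pairs of guides). Not every pair exceeded 0.1, so the main fits did not use the replicate number, although the lowest ASPC1 value was 0.08. Whether same-numbered ASPC1 libraries share a batch was not tested. As a hint from the data, within all 7 ASPC1 guides SLC40A1 was higher and TFRC lower in the library numbered 2. With the replicate number as a block the counts were 6, 5 and 3 in Panc10.05 (P1-a2, P2-a8, P1-a2 against P2-a8), 6, 3 and 4 in BxPC3, 0, 0 and 5 for sgP1, sgP2 and sgDual, 1, 5 and 5 between targets, 4, 1 and 1 between guides, and 6 and 6 for the line differences. Of the single-gene calls the block ended BMP6 with P2-a8 in Panc10.05 (adjusted p = 0.0644) and added SLC40A1 between the dual guides (1.63e-04) and FTH1 in the P2-a8 line difference (0.0171). Few reads limit CP, CYBRD1 and HEPH in Panc10.05 and CP in ASPC1, and groups of 2 to 4 libraries limit the tests.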

Other observations

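Across the 14 ASPC1 libraries, log2 CPM of HEPH followed FTL most closely among the 7 other tested members (Pearson r = 0.74), then HMOX1 (0.51), SLC40A1 (0.48), CYBRD1 (0.38) and TFRC (0.27), with FTH1 at -0.03 and TFR2 at -0.47. The libraries share guides and depth, and these values are a description.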
